A study of Mus musculus with 9 samples.

Results

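Translation initiation factor genes were taken as all symbols of the deposited table that begin with Eif and a digit from 1 to 6, leaving out the Eif2ak kinases, kept where 3 or more of the 9 hippocampus libraries reached 1 TPM. TPM is a transcript abundance scaled for transcript length and library total. Of 55 such symbols 53 passed, among 14336 tested genes and 23412 symbols in all. The pair that did not pass was Eif3j1, listed at 0 in all 9 libraries, and Eif4e1b, at 0 to 0.16 TPM. Of the 53 genes, 4 carry older symbols of the Argonaute genes (Eif2c1, Eif2c2, Eif2c3 and Eif2c4, named Ago1, Ago2, Ago3 and Ago4 by RefSeq). Argonautes bind small RNAs and are not initiation factors, so 49 genes remained without them.

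Bulk poly(A) RNA sequencing was done on wild-type mouse hippocampus at postnatal day 21, with 3 libraries in each of 3 groups. The PFOS P1-7 pups were nursed by dams gavaged daily with perfluorooctane sulfonate (PFOS, a persistent perfluorinated surfactant) at 1 mg/kg on days 1 to 7. The PFOS P8-14 pups were exposed in the same way on days 8 to 14. Control pups were sham treated. The design asks in which week after birth exposure matters, which calls for a comparison of each PFOS group with control and of PFOS P8-14 with PFOS P1-7. The labels give no animal, litter or sex for a library, so p-values measure the spread between libraries, part of which may be technical, and pups of 1 dam cannot be told from pups of several. Sequencing depth is unknown, because TPM keeps no read totals.

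Initiation is the stage of protein synthesis at which most control is exerted. The eIF4F complex joins the cap-binding protein eIF4E, the scaffold eIF4G and the helicase eIF4A on a messenger RNA, while eIF2 delivers the initiator tRNA to a small ribosomal subunit held by eIF3, and the loaded subunit scans for a start codon. In hippocampal neurons, control of eIF2 by phosphorylation and of eIF4E by its repressors is known to shape lasting synaptic plasticity and memory.

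Marker levels were read first: 10 of 10 hippocampal neuron markers reached at least 1 TPM in every library. Their sums were 4633 to 5029 TPM in PFOS P1-7, 4404 to 5175 TPM in PFOS P8-14 and 3651 to 4743 TPM in control. Of 8 listed thalamus and striatum markers 7 were measured, and these 7 also reached 1 TPM in every library. They summed to 154 to 237 TPM in PFOS P1-7, 178 to 334 TPM in PFOS P8-14 and 199 to 224 TPM in control. Presence at 1 TPM therefore does not settle how purely hippocampal the tissue was. Choroid plexus and ependyma was also present unevenly. Its 21 markers, of which none was at 0 in all libraries, summed to 239 to 13136 TPM in PFOS P1-7, 332 to 11238 TPM in PFOS P8-14 and 206 to 11202 TPM in control, and its marker Ttr split the libraries into 5 at 9446 to 11626 TPM and 4 at 35.1 to 107.7 TPM. The high libraries were PFOS P1-7 replicates 1 and 3, PFOS P8-14 replicates 1 and 2 and control replicate 3. Endothelium markers, 6 of 6 at or above 1 TPM in every library, summed to 241 to 287 TPM in PFOS P1-7, 267 to 281 TPM in PFOS P8-14 and 294 to 332 TPM in control. These sums were higher in every control library than in any exposed one. Of the single markers only Cldn5 separated in this way, at 106 to 122 TPM in control and 73.8 to 97.8 TPM in the exposed libraries. Pecam1, Flt1, Cdh5, Ly6c1 and Slco1a4 overlapped, and Flt1 was lower in control replicates 2 and 3 than in any exposed library. The sums therefore do not show a common shift of the endothelium markers. The part of these markers in the group differences of the family was not tested. Libraries also differed by a trend with transcript length. Across tested genes, Spearman's rho between a gene's deviation from its mean and transcript length was 0.13, 0.46 and 0.17 in PFOS P1-7 replicates 1 to 3, 0.17, -0.19 and 0.30 in PFOS P8-14 replicates 1 to 3, and 0.19, -0.41 and -0.51 in control replicates 1 to 3. Control replicates 2 and 3 therefore stood apart from control replicate 1 and from 5 of the exposed libraries in the sign of this trend.

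No initiation factor gene passed the threshold of an adjusted p below 0.05 in any comparison (limma on log2(TPM + 1), Benjamini-Hochberg over all 14336 genes). In PFOS P1-7 against control, the 8 genes with the smallest p (Eif4b, Eif2s3x, Eif5, Eif4g1, Eif1ax, Eif3c, Eif3a and Eif4g3) had higher levels in the exposed group by 0.20 to 0.49 on the log2 scale, and Eif1 and Eif5a had lower levels, all short of the threshold. In PFOS P8-14 against control the differences of these genes had the same signs; both comparisons share the 3 control libraries. Between the exposed groups no gene of the family had an unadjusted p below 0.05. A higher or lower TPM in bulk tissue does not tell a change in the cells that express a gene from a change in RNA per cell.

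**Figure D1:**
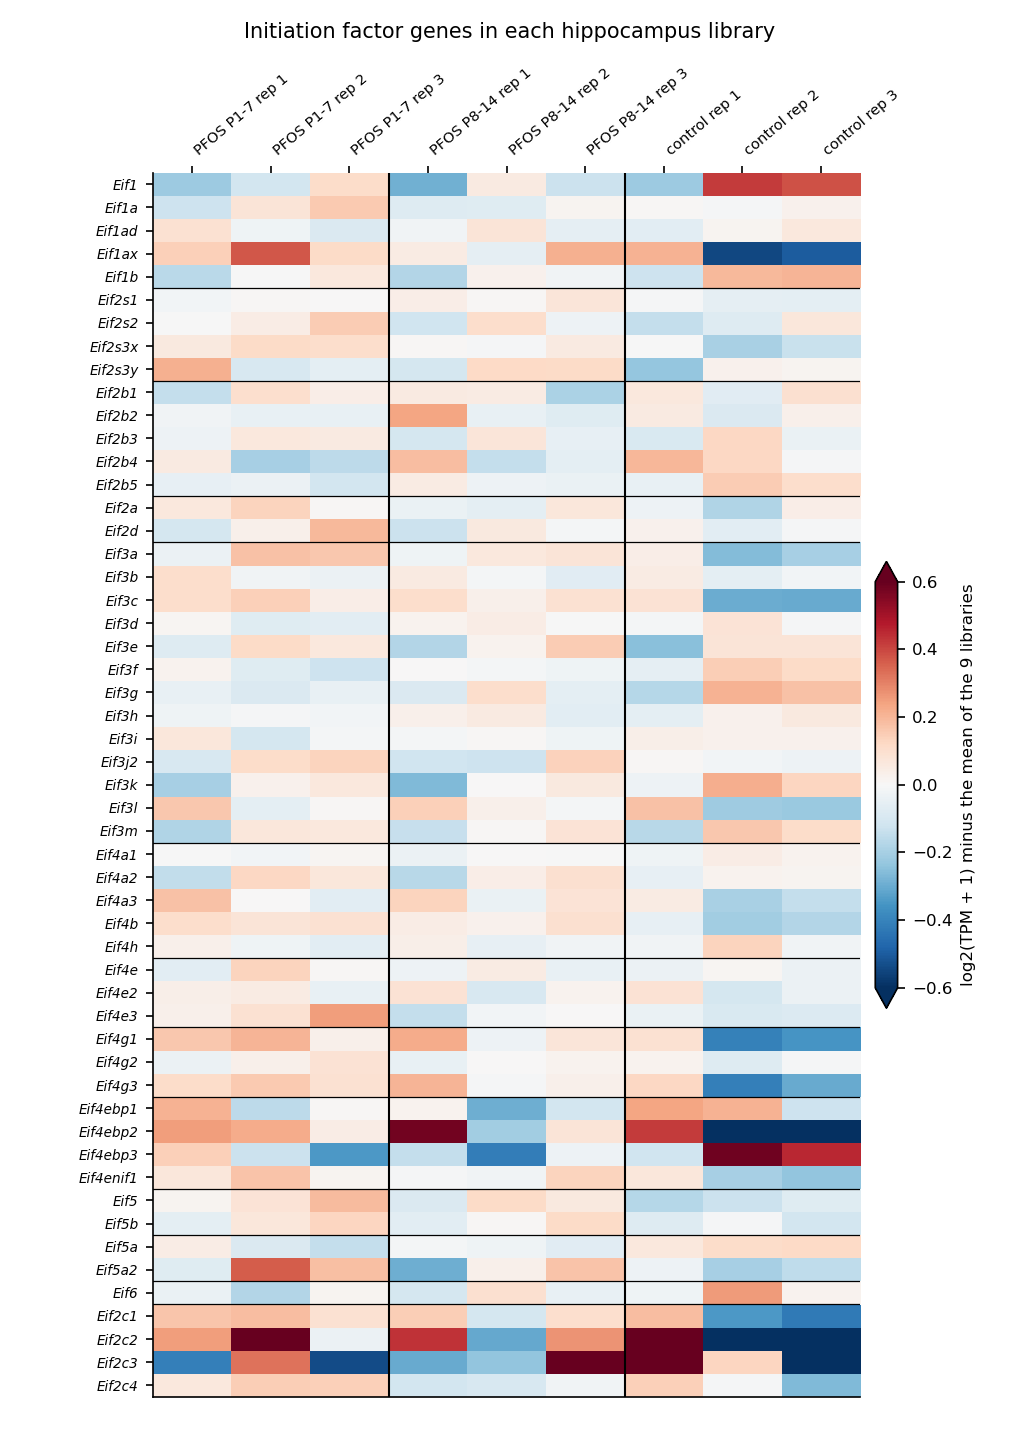
Each row is 1 of the 53 genes, grouped by role between thin lines, and each column 1 library; colour is log2(TPM + 1) minus the gene's mean over the 9 libraries. Control replicates 2 and 3 are blue for Eif1ax, Eif3c, Eif4g1, Eif4g3 and Eif4ebp2 and red for Eif1 and Eif4ebp3, while control replicate 1 is coloured like the exposed libraries for these genes.

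The family was abundant. Summed over the 53 genes, the level was 6814 ± 123 TPM in PFOS P1-7, 6728 ± 147 TPM in PFOS P8-14 and 6822 ± 144 TPM in control (SD, n = 3 each). For TPM as deposited, the group means thus lay within 1 SD of each other. This closeness depended on scaling: the means were 6622 in PFOS P1-7 and 7033 in control with median-of-ratios scaling. In control the order of levels began with Eif1 at 635 ± 145 TPM, Eif4a2 at 611 ± 15.8 TPM, Eif5a at 561 ± 12.5 TPM, Eif4a1 at 491 ± 12.5 TPM and Eif4h at 424 ± 26.5 TPM. Eif1 and Eif4a2, neighbours in this order, did not differ beyond their spread. In control, 19 genes averaged at least 100 TPM and 8 averaged below 20 TPM, namely Eif4ebp2, Eif5a2, Eif2c2, Eif4e3, Eif4ebp3, Eif4ebp1, Eif2c4 and Eif2c3.

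Most of the genes were steady across libraries. The SD of log2(TPM + 1) over the 9 libraries had a median of 0.12 over the 53 genes, against 0.17 over all tested genes and 0.16 over the 12046 tested genes in the same range of mean level. Eif4a1, a DEAD-box helicase, was the steadiest, at 486, 481 and 490 TPM in PFOS P1-7, 475, 487 and 486 TPM in PFOS P8-14 and 477, 502 and 493 TPM in control, an SD of 0.024. Control replicates 2 and 3 were above every exposed library and control replicate 1 was among them. Eif2s1, Eif3h, Eif3d and Eif4g2 followed, with SDs of 0.041 to 0.048, whereas Eif2c3, Eif2c2, Eif4ebp2 and Eif4ebp3 had SDs of 0.34 to 0.60.

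The factors that select the start codon included genes that differed in opposite directions. Eif1ax, an X-linked gene for the scanning factor eIF1A, stood at 194, 227 and 190 TPM in PFOS P1-7, 181, 169 and 203 TPM in PFOS P8-14 and 203, 119 and 124 TPM in control. Control replicates 2 and 3 were below every exposed library, while control replicate 1 was among them. The log2 difference from control was 0.49 (SE 0.18, limma adjusted p = 0.226) in PFOS P1-7 and 0.35 (SE 0.18, limma adjusted p = 0.476) in PFOS P8-14. Eif1, whose product guards against initiation at wrong codons, ran the other way. It stood at 469, 504 and 588 TPM in PFOS P1-7, 445, 565 and 498 TPM in PFOS P8-14 and 468, 728 and 710 TPM in control, and again control replicate 1 was within the range of the exposed libraries. Its log2 difference was -0.27 (SE 0.17, limma adjusted p = 0.403) in PFOS P1-7 and -0.32 (SE 0.17, limma adjusted p = 0.480) in PFOS P8-14. Eif1b, Eif1a and Eif1ad, the other genes of this role, averaged 292, 32.1 and 27.5 TPM in PFOS P1-7, 287, 30.2 and 27.7 TPM in PFOS P8-14 and 319, 31.4 and 27.8 TPM in control. The autosomal Eif1a was expressed at 0.159 ± 0.022 times the level of Eif1ax in PFOS P1-7, 0.164 ± 0.010 times in PFOS P8-14 and 0.224 ± 0.060 times in control (SD, n = 3 each), and the groups overlapped. Of Eif1 sequence, 25.6% of 75-base words occur in other annotated genes, so part of its level is uncertain.

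The ternary complex genes encode eIF2, which brings the initiator tRNA, and eIF2B, which reloads eIF2 with GTP. Eif2s3x, the X-linked gamma subunit gene, stood at 86.5, 89.8 and 89.3 TPM in PFOS P1-7, 83.4, 82.6 and 86 TPM in PFOS P8-14 and 82.7, 72.4 and 75.5 TPM in control. Each PFOS P1-7 library was above each control library, and 1 PFOS P8-14 library was just below the highest control. The log2 difference of PFOS P1-7 from control was 0.20 (SE 0.07, limma adjusted p = 0.220). Of Eif2s3x sequence, 35.7% of 75-base words occur in other annotated genes, so its level is uncertain. Its Y-linked counterpart Eif2s3y stood at 70.0, 56.3 and 57.7 TPM in PFOS P1-7, 55.9, 65.6 and 65.3 TPM in PFOS P8-14 and 51.0, 61.3 and 60.9 TPM in control, with overlapping groups, so that Y-linked RNA was present in all 9 libraries. The alpha and beta subunit genes Eif2s1 and Eif2s2 averaged 29.4 and 85.5 TPM in PFOS P1-7, 30.3 and 80.9 TPM in PFOS P8-14 and 28.6 and 78.9 TPM in control. All 4 eIF2 genes had a log2 difference above 0 in each exposed group, with medians of 0.10 in PFOS P1-7 and 0.09 in PFOS P8-14, which are close to the medians of all tested genes, 0.09 and 0.06. With median-of-ratios scaling 3 of the 4 were above 0 in each exposed group. Of the 5 eIF2B genes, 4 had a difference below 0 in each exposed group, with medians of -0.04 in PFOS P1-7 and -0.06 in PFOS P8-14, and 5 with median-of-ratios scaling. None of these eIF2 and eIF2B genes passed the threshold.

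The 13 measured eIF3 genes encode the subunits of the largest factor, which holds the small ribosomal subunit and recruits the messenger RNA. Eif3c, a core subunit gene, stood at 173, 178 and 165 TPM in PFOS P1-7, 173, 164 and 171 TPM in PFOS P8-14 and 170, 130 and 130 TPM in control. Its differences were 0.27 (SE 0.10, limma adjusted p = 0.235) in PFOS P1-7 and 0.25 (SE 0.10, limma adjusted p = 0.443) in PFOS P8-14. Control replicate 1 was again level with the exposed libraries. Eif3a, the gene for the other large core subunit, stood at 100.4, 116 and 115 TPM in PFOS P1-7, 101, 108 and 109 TPM in PFOS P8-14 and 106, 85.8 and 89.4 TPM in control, a difference of 0.24 (SE 0.10, limma adjusted p = 0.240) in PFOS P1-7. As a set the eIF3 genes had no common direction, with 6 higher and 7 lower than control in each exposed group and medians of -0.02 in PFOS P1-7 and 0.00 in PFOS P8-14, but 3 higher and 10 lower in each with median-of-ratios scaling. The highest was Eif3k, at 294 ± 28.3 TPM in PFOS P1-7, 288 ± 33.6 TPM in PFOS P8-14 and 324 ± 28.0 TPM in control (SD, n = 3 each). Eif3j2, at 50.0 to 60.2 TPM over the 9 libraries, shares 87.4% of its 75-base words with Eif3j1, which was listed at 0, so reads of these near-identical copies may have been assigned to one of them and its level is uncertain.

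The 3 eIF4G scaffold genes had differences above 0 in both exposed groups, with medians of 0.32 in PFOS P1-7 and 0.27 in PFOS P8-14, although Eif4g2 lay below 0 with median-of-ratios scaling and, in PFOS P8-14, with quantile normalization. Eif4g1, on chromosome 16 (20672720 to 20692883, mm10), encodes the main scaffold that bridges the cap and the ribosome. Eif4g1 stood at 174, 179 and 159 TPM in PFOS P1-7, 182, 153 and 164 TPM in PFOS P8-14 and 166, 117 and 122 TPM in control. Eif4g3, a second scaffold gene, stood at 109, 113 and 108 TPM in PFOS P1-7, 117, 101 and 103 TPM in PFOS P8-14 and 111, 75.9 and 81.8 TPM in control. In both genes control replicates 2 and 3 were below every exposed library and control replicate 1 lay inside the exposed range. The differences of Eif4g1 were 0.35 (SE 0.13, limma adjusted p = 0.223) in PFOS P1-7 and 0.31 (SE 0.13, limma adjusted p = 0.443) in PFOS P8-14. Those of Eif4g3 were 0.32 (SE 0.13, limma adjusted p = 0.245) in PFOS P1-7 and 0.27 (SE 0.13, limma adjusted p = 0.460) in PFOS P8-14. The ratio of Eif4g1 to Eif4g3 was nearly constant, at 1.55 ± 0.066 in PFOS P1-7, 1.55 ± 0.035 in PFOS P8-14 and 1.51 ± 0.030 in control (SD, n = 3 each). Eif4g2, which encodes a scaffold lacking the eIF4E-binding site, had the longest transcript of the 3 scaffolds and averaged 191 ± 7.98 TPM in PFOS P1-7, 186 ± 4.35 TPM in PFOS P8-14 and 184 ± 6.35 TPM in control.

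**Figure D2:**
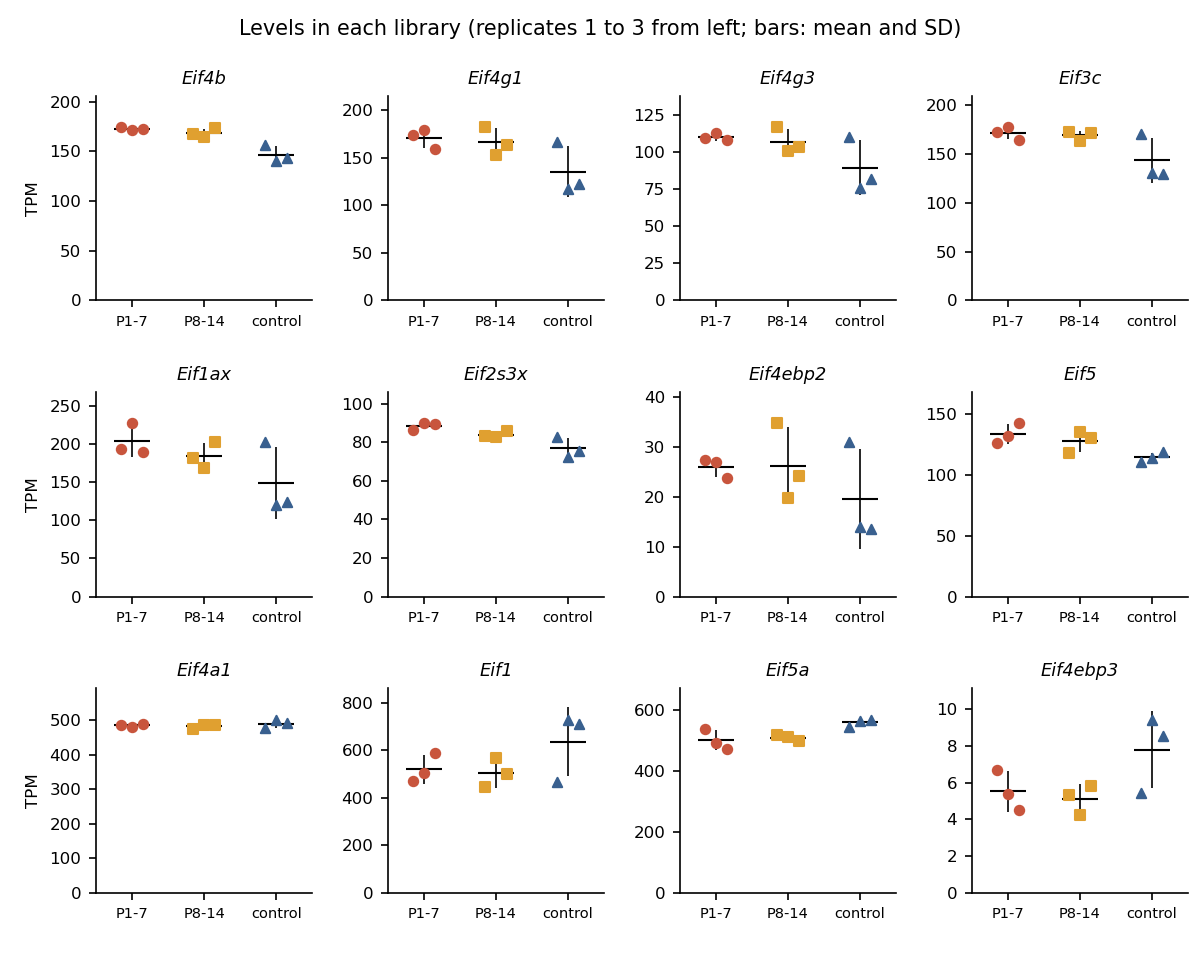
TPM of 12 genes in each library on axes that start at 0; points are replicates 1 to 3 from left to right, horizontal bars the group mean and vertical bars the SD (n = 3). In Eif4g1, Eif4g3, Eif3c, Eif1ax and Eif4ebp2 the leftmost control point lies level with the exposed points and the other control points below them, and the 9 points of Eif4a1 lie between 475 and 502 TPM.

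Among the helicases and their cofactors, Eif4b, which encodes the activator of eIF4A, had the smallest adjusted p of the family in both comparisons with control. Eif4b stood at 174, 171 and 173 TPM in PFOS P1-7, 167, 165 and 174 TPM in PFOS P8-14 and 157, 140 and 143 TPM in control. Every exposed library was above every control library. The difference was 0.24 (SE 0.07, limma adjusted p = 0.189) in PFOS P1-7 and 0.20 (SE 0.07, limma adjusted p = 0.426) in PFOS P8-14. The neuronally abundant helicase gene Eif4a2 stood at 553, 667 and 642 TPM in PFOS P1-7, 545, 630 and 654 TPM in PFOS P8-14 and 593, 621 and 619 TPM in control, with no separation. Its ratio to Eif4a1 was 1.28 ± 0.13 in PFOS P1-7, 1.26 ± 0.10 in PFOS P8-14 and 1.25 ± 0.010 in control (SD, n = 3 each). Of Eif4a1, 62.9% of 75-base words occur in other annotated genes, so its level depends on how such reads were assigned. Eif4h, a smaller cofactor gene, and Eif4a3, whose product works in the exon junction complex, averaged 409 and 104 TPM in PFOS P1-7, 412 and 106 TPM in PFOS P8-14 and 424 and 94.9 TPM in control.

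Of the cap-binding protein genes, Eif4e and Eif4e2 varied little. Eif4e averaged 79.4 ± 5.59 TPM in PFOS P1-7, 77.4 ± 2.68 TPM in PFOS P8-14 and 76.9 ± 1.5 TPM in control (SD, n = 3 each). Eif4e2 averaged 46.9 ± 1.62 TPM in PFOS P1-7, 46.6 ± 2.98 TPM in PFOS P8-14 and 45.9 ± 3.22 TPM in control. Eif4e3 stood at 17.3, 18 and 20.3 TPM in PFOS P1-7, 15.2, 16.7 and 16.9 TPM in PFOS P8-14 and 16.4, 15.8 and 15.9 TPM in control. Its PFOS P1-7 libraries were above every other library. The difference of PFOS P8-14 from PFOS P1-7 was -0.18 (SE 0.09, limma adjusted p = 1.00), the smallest p of the family in that comparison.

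The genes for repressors that hold eIF4E included Eif4ebp2 and Eif4ebp3, the most variable of the 49 initiation genes. Eif4enif1, another gene of this role, averaged 32.9 TPM in PFOS P1-7, 31.8 TPM in PFOS P8-14 and 28.4 TPM in control. Eif4ebp2, the highest of the Eif4ebp genes here and a target of mTORC1, stood at 27.5, 27.0 and 23.7 TPM in PFOS P1-7, 34.7, 19.7 and 24.2 TPM in PFOS P8-14 and 31.1, 14.0 and 13.5 TPM in control. Control replicate 1 was above 5 of the 6 exposed libraries and control replicates 2 and 3 were below all of them. The differences were 0.50 (SE 0.29, limma adjusted p = 0.374) in PFOS P1-7 and 0.47 (SE 0.29, limma adjusted p = 0.524) in PFOS P8-14. Leaving out 1 library at a time, they ran from 0.30 (without control replicate 3) to 0.87 (without control replicate 1) in PFOS P1-7 and from 0.26 (without PFOS P8-14 replicate 1) to 0.85 (without control replicate 1) in PFOS P8-14. Eif4ebp3 stood at 6.71, 5.39 and 4.50 TPM in PFOS P1-7, 5.32, 4.23 and 5.84 TPM in PFOS P8-14 and 5.42, 9.44 and 8.55 TPM in control, with control replicates 2 and 3 above all other libraries. Its differences were -0.41 (SE 0.21, limma adjusted p = 0.309) in PFOS P1-7 and -0.50 (SE 0.21, limma adjusted p = 0.443) in PFOS P8-14, on a scale that understates the change of low genes. Of its 75-base words 64.2% occur in another annotated gene. Eif4ebp1 averaged 5.29 ± 0.81 TPM in PFOS P1-7, 4.67 ± 0.61 TPM in PFOS P8-14 and 5.69 ± 0.89 TPM in control (SD, n = 3 each). The ratio of Eif4ebp2 to Eif4e was 0.329 ± 0.035 in PFOS P1-7, 0.340 ± 0.107 in PFOS P8-14 and 0.255 ± 0.133 in control, with overlapping groups.

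Eif5, which encodes the activator of GTP hydrolysis by eIF2, stood at 126, 132 and 142 TPM in PFOS P1-7, 118, 135 and 130 TPM in PFOS P8-14 and 111, 114 and 119 TPM in control. The PFOS P1-7 libraries were above every control library, and the PFOS P8-14 libraries overlapped control by 1 library. The difference was 0.22 (SE 0.08, limma adjusted p = 0.220) in PFOS P1-7 and 0.15 (SE 0.08, limma adjusted p = 0.470) in PFOS P8-14. Eif5b, whose product joins the ribosomal subunits, averaged 29.3 TPM in PFOS P1-7, 28.7 TPM in PFOS P8-14 and 27.0 TPM in control. Eif5a, which encodes a hypusine-bearing factor that eases elongation and termination, stood at 540, 492 and 474 TPM in PFOS P1-7, 519, 513 and 499 TPM in PFOS P8-14 and 546, 566 and 570 TPM in control. Every control library was above every exposed library. The difference was -0.16 (SE 0.07, limma adjusted p = 0.270) in PFOS P1-7 and -0.13 (SE 0.07, limma adjusted p = 0.478) in PFOS P8-14. Its paralog Eif5a2 stood at 18.6, 25.5 and 22.4 TPM in PFOS P1-7, 15.8, 20.02 and 22.2 TPM in PFOS P8-14 and 19.2, 16.9 and 17.5 TPM in control, and its difference in PFOS P1-7 was 0.28 (SE 0.14, limma adjusted p = 0.317). The ratio of Eif5a to Eif5a2 was 23.2 ± 5.20 in PFOS P1-7, 27.0 ± 5.27 in PFOS P8-14 and 31.5 ± 2.64 in control (SD, n = 3 each), with overlapping groups. Eif6, which keeps the large ribosomal subunit apart until it is needed, averaged 62.6 TPM in PFOS P1-7, 64.8 TPM in PFOS P8-14 and 69.8 TPM in control.

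The promoters of Eif4g1 and Eif5a are printed to show a motif that both hold; the differences of these genes from control had opposite signs and did not pass the threshold. The 120 bases before 1 annotated start of each hold the E-box CACGTG, shown in capitals, which MYC and USF proteins are known to bind. The Eif4g1 stretch is chr16:20672607-20672726 on the plus strand and the Eif5a stretch, before 1 of 6 annotated starts, is chr11:69921387-69921506 on the minus strand (RefSeq, GRCm38.p6, which is mm10), both 5′ to 3′.
Eif4g1: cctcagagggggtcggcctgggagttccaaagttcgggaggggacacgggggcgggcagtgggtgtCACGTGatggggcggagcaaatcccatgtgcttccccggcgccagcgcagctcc
Eif5a: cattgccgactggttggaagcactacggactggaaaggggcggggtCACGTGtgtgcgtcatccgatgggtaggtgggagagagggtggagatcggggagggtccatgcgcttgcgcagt
Promoters were matched for 41 of the 53 genes. CACGTG, searched on both strands in the 250 bases before each start, was present in 9 of them (22%), against 6.86% of 27025 genes. The 9 were Eif1b, Eif3f, Eif3k, Eif4a1, Eif4e, Eif4g1, Eif4h, Eif5a and Eif5a2. CCAAT on either strand was present in 13 (31.7%, against 37.5% of all genes) and the cyclic AMP response element TGACGTCA in 0 (against 1.77%). TGATGNAA, the core of the ATF4 composite element, was present in 1, Eif2s3x (2.44%, against 3.91%). These matches are a description of the letters in this window.

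Eif2c3 and Eif2c2, of the 4 Argonaute genes, were the most variable of the 53. Eif2c1 (Ago1) stood at 54.7, 55.4 and 52.0 TPM in PFOS P1-7, 54.0, 45.1 and 52.2 TPM in PFOS P8-14 and 55.5, 38.2 and 36.1 TPM in control, a difference of 0.34 (SE 0.15, limma adjusted p = 0.261) in PFOS P1-7. Eif2c2 (Ago2), the Argonaute with slicer activity, stood at 23.8, 30.7 and 19.3 TPM in PFOS P1-7, 27.1, 15.8 and 24.1 TPM in PFOS P8-14 and 30.5, 9.94 and 10.2 TPM in control. In both genes control replicate 1 was level with the exposed libraries and the other controls were below them. Eif2c3 and Eif2c4 ranged from 1.36 to 6.42 TPM and from 4.14 to 5.85 TPM over the 9 libraries.

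Counted over the family, PFOS P1-7 against control gave 0 of 53 genes past the adjusted threshold, as for all tested genes (0%), and the smallest adjusted p was 0.189. The unadjusted p was below 0.05 for 10 of 53 (18.9%), against 18.3% of all tested genes. Of these 9 were higher (Eif4b, Eif2s3x, Eif5, Eif4g1, Eif1ax, Eif3c, Eif3a, Eif4g3 and Eif2c1), where all tested genes gave 12.5%, and 1 was lower (Eif5a), where they gave 5.79%. The share of the family was thus near the background. Groups did not overlap for 4 genes that were higher (Eif4b, Eif2s3x, Eif5, Eif4e3) and for 1 that was lower (Eif5a), against backgrounds of 12.3% and 6.56%. The median log2 difference was 0.04 over the 53 genes and 0.09 over all tested genes, with 32 of 53 above 0 against 65.5% of all tested genes. The split depended on scaling: with median-of-ratios scaling 21 were above 0 and 32 below, and with quantile normalization 25 and 28, while the medians of all tested genes were 0.01 and 0.00. Without the Argonaute genes 29 of 49 were above 0 and 9 had an unadjusted p below 0.05.

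PFOS P8-14 against control gave 0 of 53 genes past the adjusted threshold (all tested genes 0%), with a smallest adjusted p of 0.426. The unadjusted p was below 0.05 for 4 genes, where 11.0% of all tested genes had one. Of these 3 were higher (Eif4b, Eif3c, Eif4g1), against 6.33%, and 1 was lower (Eif4ebp3), against 4.65%. Groups did not overlap for Eif4b and Eif2s1, which were higher (background 7.31%), and for Eif5a and Eif3i, which were lower (background 5.99%). The median was 0.01 over the family and 0.06 over all tested genes, with 29 above 0, 24 below, and 62.1% of all tested genes above 0. With median-of-ratios scaling 19 were above 0 and 34 below, and with quantile normalization 22 and 31. In the moderated F test over all 3 groups there were 0 genes past the threshold and 5 with an unadjusted p below 0.05 (Eif4b, Eif2s3x, Eif4g1, Eif3c and Eif5), against 11.3% of all tested genes.

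PFOS P8-14 against PFOS P1-7 asked whether the windows differ from each other. It gave 0 of 53 genes past the adjusted threshold (all tested genes 0%) and 0 at an unadjusted p below 0.05, against 1.10% of all tested genes (0.467% higher and 0.635% lower). The family's median was -0.03, as was that of all tested genes, with 17 above 0 and 36 below, against 38.8% of all tested genes above 0. With median-of-ratios scaling 25 were above 0 and 28 below. Groups did not overlap for Eif2s1, which was higher in PFOS P8-14 (background 1.90%), and for Eif2s3x, Eif4e3 and Eif2c4, which were lower (background 4.15%). The differences of the 8 genes with the smallest p lay between -0.19 (Eif2c4, SE 0.13) and 0.06 (Eif3d, SE 0.06), and the interval of Eif2c4 ran from -0.49 to 0.10. These intervals bound the differences and do not show that the windows act alike.

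**Figure D3:**
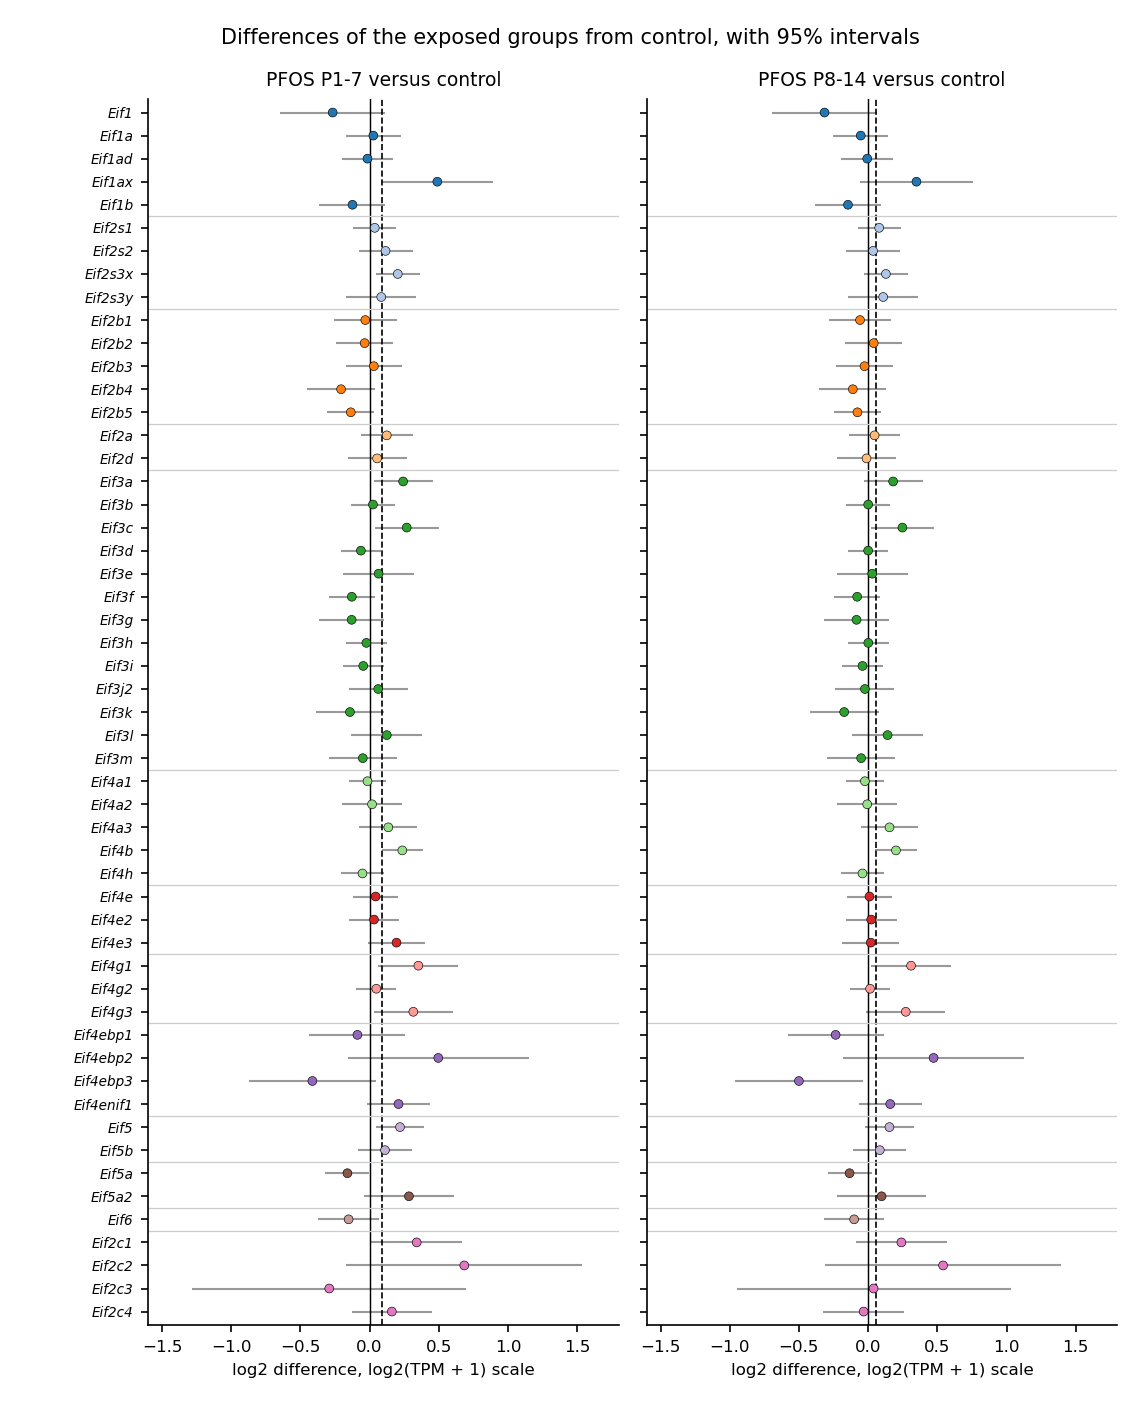
Log2 differences on the log2(TPM + 1) scale of PFOS P1-7 (left) and PFOS P8-14 (right) from control for the 53 genes, coloured by role, with 95% intervals from limma; the dashed line is the median of all tested genes, 0.09 and 0.06. Intervals of Eif4b, Eif4g1 and Eif3c lie above 0 in both panels, before adjustment over 14336 genes.

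The differences ran with transcript length. With the median length of all tested genes, 3023.5 bases, as the divide, 19 of the 53 genes had longer transcripts and 34 shorter ones. Of the 19, 18 had a difference above 0 in PFOS P1-7 and 18 in PFOS P8-14, against 83.1% and 77.3% of all tested genes with longer transcripts. With median-of-ratios scaling these counts were 15 in PFOS P1-7 and 16 in PFOS P8-14. Their median differences were 0.24 in PFOS P1-7 and 0.16 in PFOS P8-14, against 0.17 and 0.12 for all longer genes. Of the 34 shorter genes 14 were above 0 in PFOS P1-7 and 11 in PFOS P8-14, against 48.0% and 47.0% of all tested genes with shorter transcripts. Their medians were -0.03 in both, against -0.01 and -0.02 for all shorter genes. With median-of-ratios scaling only 6 of the 34 were above 0 in PFOS P1-7 and 3 in PFOS P8-14, so this split depended on scaling. Across the 53 genes Spearman's rho between difference and length was 0.65 in PFOS P1-7 and 0.66 in PFOS P8-14, and across all 14204 tested genes with a length it was 0.48 and 0.41. These are descriptions across genes that share libraries and the same controls. Of the 9 genes higher in PFOS P1-7 at an unadjusted p below 0.05, 9 were among the longer genes, and the lower one, Eif5a, was among the shorter.

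**Figure D4:**
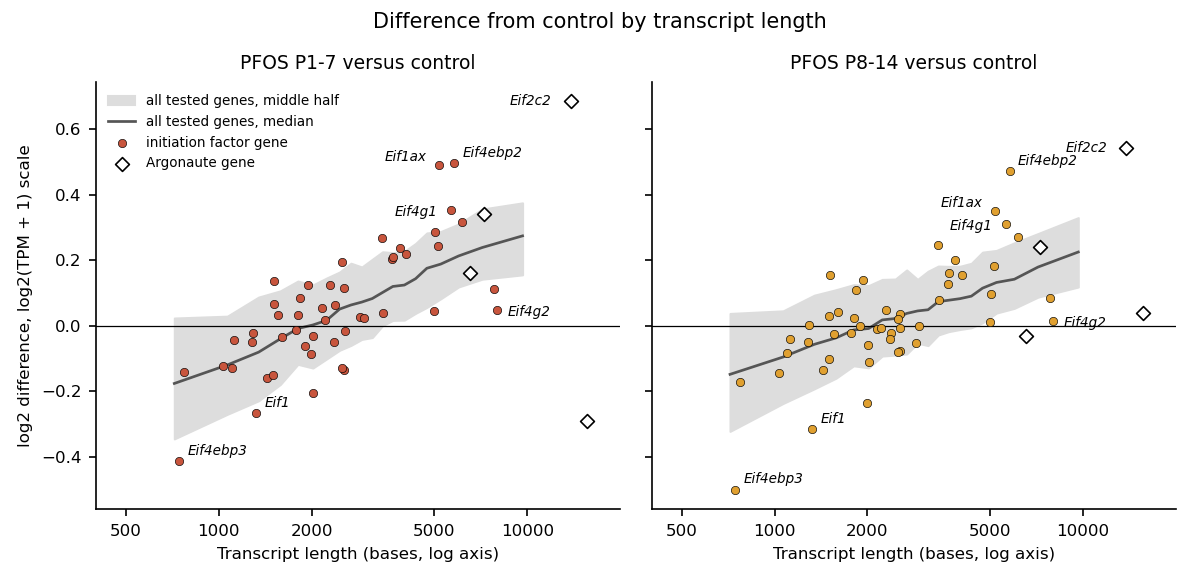
Log2 difference from control against transcript length (log axis) for the 53 genes in PFOS P1-7 (left) and PFOS P8-14 (right); diamonds are Argonaute genes, the line is the median of all tested genes in 20 bins of length and the band their interquartile range. The genes slope upward with the line in both panels, with Eif4ebp3 and Eif1 at the short end below 0 and Eif1ax, Eif4ebp2 and Eif4g1 at the long end above 0.

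Control replicates 2 and 3 stood apart in this pattern. The median deviation of the 19 longer genes from their means was 0.07, 0.16 and 0.09 in PFOS P1-7 replicates 1 to 3, 0.01, -0.01 and 0.08 in PFOS P8-14 replicates 1 to 3, and 0.07, -0.20 and -0.24 in control replicates 1 to 3. For the 34 shorter genes it stayed between -0.04 and 0.04. Control replicate 1 lay within the range of the 6 exposed libraries for 40 of the 53 genes, control replicate 2 for 20 and control replicate 3 for 25, against 66.0%, 44.7% and 45.1% of all tested genes. Without control replicate 1, 14 genes passed the threshold in PFOS P1-7 (11 higher; Eif1, Eif3g and Eif4ebp3 lower), against 18.5% of all tested genes, and 10 in PFOS P8-14 (8 higher; Eif1 and Eif4ebp3 lower), against 12.1%. There Eif1ax differed by 0.73 (limma adjusted p = 0.00554) in PFOS P1-7 and by 0.59 (limma adjusted p = 0.0140) in PFOS P8-14, over 2 control libraries. With control replicates 2 and 3 left out instead, a setting chosen after the data were seen, 0 genes passed and the medians of the longer genes were 0.01 in PFOS P1-7 and -0.01 in PFOS P8-14.

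**Figure D5:**
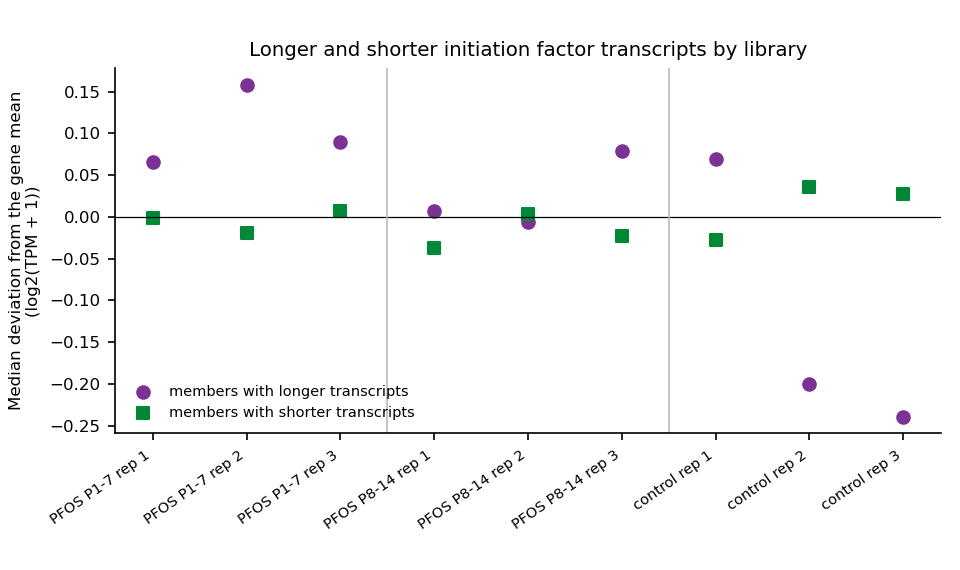
Median deviation of log2(TPM + 1) from the gene mean in each library, for the 19 genes with longer transcripts (circles) and the 34 with shorter ones (squares). The longer genes sit at -0.20 and -0.24 in control replicates 2 and 3 and between -0.01 and 0.16 in the other 7 libraries.

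After a trend with length and GC content was taken out of every library, 0 genes passed in any comparison, and the median of the longer genes in PFOS P1-7 was 0.09. In PFOS P1-7 the differences from control were then 0.31 for Eif1ax, 0.17 for Eif4g1, 0.16 for Eif3c and 0.11 for Eif4b. In PFOS P8-14 they were 0.26 for Eif1ax, 0.17 for Eif4g1, 0.17 for Eif3c and 0.11 for Eif4b. With the trend removed and control replicate 1 left out as well, 6 genes passed in PFOS P1-7 (Eif1ax, Eif3c, Eif4g1 and Eif2c2 higher; Eif2b5 and Eif3f lower), against 6.65% of all tested genes, and 3 passed in PFOS P8-14 (Eif1ax, Eif3c and Eif4g1, all higher), against 5.80%. Eif1ax differed there by 0.54 (limma adjusted p = 0.0185) in PFOS P1-7 and by 0.48 (limma adjusted p = 0.0277) in PFOS P8-14. The part of the length trend in the group differences was not tested beyond these values.

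Regulators of initiation were described from lists of 6 kinds, and 0 of their genes passed the threshold in any comparison. The counts of higher genes that follow are counts of differences above 0, which 65.5% of all tested genes had in PFOS P1-7 and 62.1% in PFOS P8-14, so nothing particular to a list is read from them. Each gene named from a list had the smallest p of that list in a comparison with control, so separated groups partly follow from that choice. All exposed libraries were above control for 12.3% of all tested genes in PFOS P1-7 and 7.31% in PFOS P8-14. They were all below it for 6.56% and 5.99%. Among the eIF2-alpha kinases and phosphatases, 12 of 13 were tested, 10 were higher in PFOS P1-7 and 8 in PFOS P8-14. Ppp1r15a, the stress-induced phosphatase subunit gene that reverses eIF2 phosphorylation, stood at 25.7, 20.7 and 24.1 TPM in PFOS P1-7, 28.3, 23.4 and 22.2 TPM in PFOS P8-14 and 17.4, 17.9 and 17.9 TPM in control. Every exposed library was above every control library, here with control replicate 1 beside the other controls, and the differences were 0.38 (SE 0.11, limma adjusted p = 0.204) in PFOS P1-7 and 0.45 (SE 0.11, limma adjusted p = 0.424) in PFOS P8-14. Of 20 tested targets of the integrated stress response, 11 were higher in PFOS P1-7 and 12 in PFOS P8-14. Vldlr, the gene of a lipoprotein receptor, had the smallest p of these targets in PFOS P1-7. Vldlr stood at 30.8, 31.4 and 33.0 TPM in PFOS P1-7, 30.3, 29.1 and 30.4 TPM in PFOS P8-14 and 27.4, 26.1 and 25.9 TPM in control, with every exposed library above every control library, and its difference in PFOS P1-7 was 0.25 (SE 0.07, limma adjusted p = 0.198). Another target, Ddit3, the gene of the stress factor CHOP, stood at 29.8, 34.9 and 41.0 TPM in PFOS P1-7, 32.1, 37.2 and 30.2 TPM in PFOS P8-14 and 36.8, 66.5 and 57.1 TPM in control, a difference of -0.64 (SE 0.20, limma adjusted p = 0.426) in PFOS P8-14. Vldlr and Ddit3 thus differed from control with opposite signs, neither past the threshold.

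Of 21 genes of mTORC1 and eIF4E control, 16 were higher in PFOS P1-7 and 13 in PFOS P8-14. Cyfip2, which encodes a partner of the eIF4E-binding complex with FMRP, stood at 355, 380 and 351 TPM in PFOS P1-7, 326, 292 and 365 TPM in PFOS P8-14 and 321, 239 and 227 TPM in control, a difference of 0.48 (SE 0.13, limma adjusted p = 0.188) in PFOS P1-7. Akt1s1, the gene of the mTORC1 inhibitor PRAS40, stood at 74.5, 72.7 and 69.8 TPM in PFOS P1-7, 73.1, 73.0 and 65.8 TPM in PFOS P8-14 and 78.3, 84.0 and 89.9 TPM in control, a difference of -0.25 (SE 0.08, limma adjusted p = 0.426) in PFOS P8-14. Every control library was above every exposed library for Akt1s1. Among other initiation and hypusination genes, 18 of 19 were tested and 10 were higher in each exposed group. Ddx3x, the gene of an X-linked helicase that unwinds structured leaders, stood at 146, 140 and 150 TPM in PFOS P1-7, 138, 140 and 144 TPM in PFOS P8-14 and 124, 101 and 110 TPM in control. Every exposed library was above every control library. Its differences were 0.38 (SE 0.08, limma adjusted p = 0.181) in PFOS P1-7 and 0.34 (SE 0.08, limma adjusted p = 0.424) in PFOS P8-14. These adjusted p-values equal the smallest over all tested genes in each comparison. Genes can tie at such a value, as Ppp1r15a does in PFOS P8-14, so it does not single out Ddx3x.

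Of 15 elongation and release factor genes, 9 were higher in PFOS P1-7 and 8 in PFOS P8-14. Eef1b2, the gene of an exchange factor subunit for elongation factor 1A, stood at 133, 134 and 140 TPM in PFOS P1-7, 140, 157 and 146 TPM in PFOS P8-14 and 155, 171 and 164 TPM in control, a difference of -0.27 (SE 0.07, limma adjusted p = 0.183) in PFOS P1-7. Eef1g, the gene of another subunit of that complex, stood at 256, 292 and 288 TPM in PFOS P1-7, 284, 284 and 284 TPM in PFOS P8-14 and 320, 361 and 326 TPM in control, a difference of -0.24 (SE 0.08, limma adjusted p = 0.426) in PFOS P8-14. For Eef1g no exposed library reached the lowest control. Of 8 tested poly(A)-binding protein genes and partners, 5 were higher in PFOS P1-7 and 7 in PFOS P8-14. Pabpc1, whose product bridges the tail to eIF4G, stood at 162, 171 and 174 TPM in PFOS P1-7, 161, 161 and 166 TPM in PFOS P8-14 and 166, 129 and 132 TPM in control, and control replicate 1 again lay in the exposed range. Its differences were 0.26 (SE 0.09, limma adjusted p = 0.226) in PFOS P1-7 and 0.20 (SE 0.09, limma adjusted p = 0.460) in PFOS P8-14. With the choroid plexus marker level as a covariate, 0 genes of the family passed the threshold. The unadjusted p was then below 0.05 and the level higher for 12 genes in PFOS P1-7, against 9 without it. In PFOS P8-14 these counts were 5 and 3. Over all 14336 tested genes the count also rose, from 1797 to 2437 in PFOS P1-7 and from 907 to 1506 in PFOS P8-14. Nothing particular to the family is read from the rise.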

How the data were processed

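Bulk RNA sequencing libraries of mouse hippocampus, 3 in each of 3 groups, were analysed from 1 table of TPM per gene symbol deposited by the authors. Each deposited TPM column sums to between 999999.23 and 1000000.52, with 2 decimals. Per the labels' protocols, RNA was extracted with an RNeasy Lipid Tissue Mini kit and libraries were made with the TruSeq stranded mRNA kit. The submitters' processing notes name build mm10 and, with no order given, RSEM 1.3.3, STAR 2.5.3a, fastp 0.21.0 and bcl2fastq; the gene annotation is not given in the sources used here. RSEM divides reads that match several genes, so levels of genes with near-identical copies are uncertain, and TPM keeps no depth, so no counting interval was computed.

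Genes that reached 1 TPM in 3 or more libraries were tested with limma 3.58.1 in R 4.3.3 on log2(TPM + 1), with 1 mean per group, moderated variances with a mean-variance trend, two-sided tests and Benjamini-Hochberg adjustment over all 14336 genes. The pipeline was tested on simulated data. A 95% interval reached 0.29 to each side of the difference at the median over all genes. Transcript lengths came from GENCODE, matched for 99.08% of tested genes, and positions and promoters from RefSeq. Shared sequence is the share of a transcript's 75-base words found in other genes. The family, its roles and the other lists were chosen with earlier results of these data known. Values in every library were meant to follow a rule: the highest gene and the gene with the smallest F-test p of each role, the 8 lowest p-values of a comparison, fixed pairs of relatives, and the gene with the smallest p of each other list. It was not followed in full. Eif2a, Eif2b4, Eif2b5 and Eif3d have no levels printed, and Eif2c4 only its range. Eif1a, Eif1b, Eif2s2, Eif3k, Eif4e, Eif4e2, Eif4ebp1, Eif4enif1, Eif4g2 and Eif6 have group means only. Nck1, Pdcd4, Hbs1l, Paip2b and Dhx29, which had the smallest p of their lists between the exposed groups, are left out. Eif2c2 was given outside the rule. That rule also covers differences and tests, but after the values were seen the printed ones were narrowed to the 8 genes and, of the others, those above 0.25 in size or with an unadjusted p below 0.05, so printed differences lean toward larger ones. The genes with non-overlapping groups were named after their values were seen. Alternatives changed the pseudocount, filter, scaling, block, weights, covariates, length trend and libraries. Figures were drawn with matplotlib 3.10.9.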

Additional observations from a re-analysis of the deposited data

How the results depend on the processing

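In the 53 genes and 3 comparisons, 0 genes passed with pseudocounts of 0.1 or 5, without a filter, at a minimum of 5 TPM, with median-of-ratios scaling, quantile normalization, the compared groups alone, no variance trend, the choroid plexus marker level as a covariate, or the trend with length and GC removed. Exceptions were array weights (15 genes in PFOS P1-7 against control, 6 in PFOS P8-14 against control and 9 in the F test, with 2914 and 1053 of all genes in the comparisons with control), and control replicate 1 left out after detrending (6, 3 and 2 genes, with 953 and 831 of all genes). Leaving out 1 library at a time, the counts ran from 0 to 14 in PFOS P1-7 against control (all genes 0 to 2658), from 0 to 10 in PFOS P8-14 against control (all genes 0 to 1741), from 0 to 9 in the F test, and stayed at 0 between the exposed groups. The high ends were those without control replicate 1; without PFOS P8-14 replicate 1, 1 gene of all passed in PFOS P1-7 against control. The cause was not tested.

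The median of the 53 genes in PFOS P1-7 against control was -0.043 with median-of-ratios scaling, -0.0033 with quantile normalization, 0.058 with the choroid covariate, 0.0088 with control replicate 1 left out after detrending, 0.012 with control replicates 2 and 3 left out, and 0.024 to 0.062 leaving out 1 library. In PFOS P8-14 against control it was -0.047 with median-of-ratios scaling, -0.015 with quantile normalization, 0.025 with array weights, 0.027 with the choroid covariate and -0.012 after detrending, with or without the block. Between the exposed groups it was -0.0028 with median-of-ratios scaling, 0.0012 after detrending, with or without the block, 0.0014 with control replicate 1 also left out, and -0.052 to -0.0074 leaving out 1 library.

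The median of the longer genes in PFOS P1-7 was 0.087 after detrending, with or without the block, 0.099 with control replicate 1 also left out, and 0.012 with control replicates 2 and 3 left out, where it was -0.0091 in PFOS P8-14. The median of the shorter genes in PFOS P1-7 was -0.11 with median-of-ratios scaling, -0.069 with quantile normalization and 0.012 with control replicates 2 and 3 left out. In PFOS P8-14 it was -0.081, -0.067 and 0.0097 in these settings, and between the exposed groups 0.016 with median-of-ratios scaling. Summed levels with that scaling were 6622 in PFOS P1-7 and 7033 in control.

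With control replicates 2 and 3 left out, 11 of the printed differences changed sign. In PFOS P1-7 these were Eif1 (0.15), Eif2c1 (-0.038), Eif4ebp2 (-0.25), Eif4ebp3 (0.011) and Eif4g3 (-0.0058). In PFOS P8-14 they were Eif1 (0.097), Eif1ax (-0.14), Eif3c (-0.0091), Eif4ebp2 (-0.27), Eif4g1 (-0.0040) and Eif4g3 (-0.050). The 1 control left is assumed to vary like the other groups. Over all 53 genes, printed or not, the sign changed under at least 1 of 24 alternatives for 34 genes in PFOS P1-7 against control, 40 in PFOS P8-14 against control and 35 between the exposed groups, and the median size of their differences was 0.064, 0.044 and 0.031.

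The replicate block gave 0 genes in the family and medians of 0.04, 0.01 and -0.03. Correlations of deviations from the group means ran from -0.47 to 0.53 for same-numbered libraries and from -0.60 to 0.67 for the others. This cannot decide whether the numbers pair the libraries, which also differ in choroid plexus markers and in the length trend. With 3 libraries a group and unknown depth, a 95% interval reached 0.29 to each side at the median over all genes. Intervals of single genes were narrower or wider than this. In PFOS P1-7 against control, before adjustment, they ran from 0.09 to 0.39 for Eif4b and from -0.16 to 1.15 for Eif4ebp2. Neither gene passed the threshold.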
